A study of Mus musculus with 25 samples.

Results

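The Mir290 to Mir295 microRNA cluster of the mouse was followed through 9 lists of chromatin contacts, taken along the way from fibroblasts to embryonic stem (ES) cells and in cells labelled TKO. Its members were all listed pairs of 10 kb bins with at least 1 anchor in chr7:3200001-3230000 (mm10), a window of 3 bins. The window was chosen by the H3K27ac values of ES cells and fibroblasts, since its strongest pair in ES cells was missing in fibroblasts. That made 46 distinct bin pairs out of 493983 in the series. Of these, 0 were listed for H3K27ac in mouse embryonic fibroblasts (MEFs), 39 in ES cells, 43 in TKO cells at 0 h and 38 in TKO cells at 24 h. For KLF4, 1 was listed at day 3 of reprogramming, 0 at day 6 and 4 in ES cells. Hi-C listed 0 in MEFs and 2 in ES cells. The difference between MEFs and ES cells in H3K27ac contacts chose the window, so those values are given as a description with no test.

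In HiChIP, stretches of DNA that touch in fixed nuclei are joined by ligation, and joined fragments that carry a protein or mark are pulled down with an antibody. The targets here were KLF4 and H3K27ac, the acetylated histone found at working promoters and enhancers. Hi-C leaves out the pull-down. A HiChIP level therefore carries both the contact and the amount of mark or factor at its anchors, and these cannot be told apart in these lists. MEFs were derived from E13.5 embryos heterozygous for an Oct4-GFP reporter, an inducible OKSM cassette and rtTA3. They were used at passage 3 for MEF H3K27ac (2 libraries) and MEF Hi-C (2). Day 3 KLF4 (3 libraries) came from the bulk culture, and day 6 KLF4 (4) from cells sorted for SSEA1, both grown with doxycycline and ascorbic acid. The ES line was V6.5, given as grown in 2i for HiChIP, with 2 libraries of H3K27ac, 4 of KLF4 and 2 of Hi-C. TKO cells carry the V6.5 label and were also grown in 2i, without doxycycline (0 h, 3 libraries of H3K27ac) or with it for 24 h (3). The labels do not spell out TKO, and no V6.5 library with doxycycline alone was analysed here. MEFs and ES cells differ at once in cell type, genotype and medium. No label describes the replicates as separate cultures beyond calling them biological, so the tests measure the spread between these libraries.

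The cluster makes some of the most abundant microRNAs of mouse ES cells. Hairpins of the plus strand are cut from a shared primary transcript by Drosha and Dgcr8 and then by Dicer1, while Mir290b and Mir292b are annotated on the other strand, and several of the mature products share a seed, the stretch that pairs with target messages. They are known for shortening the first gap phase of the cell cycle through targets such as Cdkn1a, Lats2 and Rbl2, and the locus is known as a strong enhancer region in ES cells that is silent in fibroblasts.

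The hairpins lie close together, from chr7:3218626 to chr7:3220841, a span of 2216 bases. The mature 3p products of the plus strand are shown, as far as the RefSeq table holds them, because they are what the cluster is known for. Those of Mir290b and Mir292b, on the minus strand, are left out. Sequences and coordinates are from RefSeq (GRCm38.p6, the build of mm10), 5′ to 3′, with the seed, bases 2 to 8, in capitals.
mmu-miR-291a-3p: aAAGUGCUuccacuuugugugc
mmu-miR-294-3p: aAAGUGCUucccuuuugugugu
mmu-miR-295-3p: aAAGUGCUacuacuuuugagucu
mmu-miR-290a-3p: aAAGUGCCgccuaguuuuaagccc
mmu-miR-291b-3p: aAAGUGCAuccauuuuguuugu
mmu-miR-293-3p: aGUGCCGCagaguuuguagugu
The first 3 have the same seed, AAGUGCU, which in the RefSeq table is also that of mmu-miR-302b-3p and mmu-miR-302d-3p. The seeds of miR-290a-3p and miR-291b-3p are AAGUGCC and AAGUGCA. Of the genes, Mir290a, Mir290b, Mir291a, Mir292, Mir292b and Mir291b fall in the middle bin, chr7:3210001-3220000. Mir293, Mir294 and Mir295 fall in the last bin, chr7:3220001-3230000. The first bin, chr7:3200001-3210000, called the upstream bin here, holds no RefSeq gene and ends before the first hairpin. The non-coding transcript D7Ertd143e (chr7:3218784-3221015) runs across both microRNA bins, and so does the RefSeq model of Nlrp12 (chr7:3218643-3249771), a NOD-like receptor gene. Per the authors' annotation in the TKO lists, no gene is assigned to any of the 3 bins, and all 3 carry an H3K27ac peak at 0 h and at 24 h.

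The HiChIP libraries held 48.7 to 181 M contacts, of which 2.61 to 9.54 M on chromosome 7. Levels are the authors' CPM, the count of a pair scaled to the contacts of the same chromosome. Pairs entered a HiChIP list with a deposited p-value under 0.1 and, in most libraries, a CPM above 3, so an unlisted pair may have any value under those limits. Some libraries agreed within sampling noise by a chi-square test and were averaged as 1 replicate: 2 and 3 of TKO 0 h, 1 and 3 of TKO 24 h, and in ES KLF4 1 with 2 and 3 with 4. In ES KLF4 these sets stood apart from each other, and the KLF4 values below are given for both. The cell labels were checked by marker genes. Of 10 ES marker genes, 8 had an annotated bin, and 8 of these had more listed H3K27ac pairs in ES cells than in MEFs. Nanog and Pou5f1 were among them. Of 7 fibroblast marker genes, 3 had an annotated bin (Thy1, Col1a1 and Vim), and 3 of these had more in MEFs. Over all 12695 annotated genes, 8305 had more in ES cells and 1863 more in MEFs.

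In ES cells and in TKO cells, the upstream bin was the main anchor of the locus. It took part in 23 of the 39 ES pairs, 22 of the 43 pairs of TKO 0 h and 21 of the 38 pairs of TKO 24 h, and ranked 3 on chromosome 7 by number of pairs in each of these lists. As many pairs were held by 0.326% of the anchor bins of the ES list, 0.321% at TKO 0 h and 0.239% at TKO 24 h. The middle bin had 12, 13 and 11 pairs, and the last bin, with Mir294 and Mir295, 7, 11 and 9. So the bin without a gene had more listed partners than either bin with the microRNAs in all 3 lists. The pairs reached further downstream than upstream. In ES cells 3 pairs lay inside the window, 11 led upstream and 25 downstream, with a median distance of 50 kb against 30 kb for the whole list, and 10 pairs spanned 100 kb or more.

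**Figure D1:**
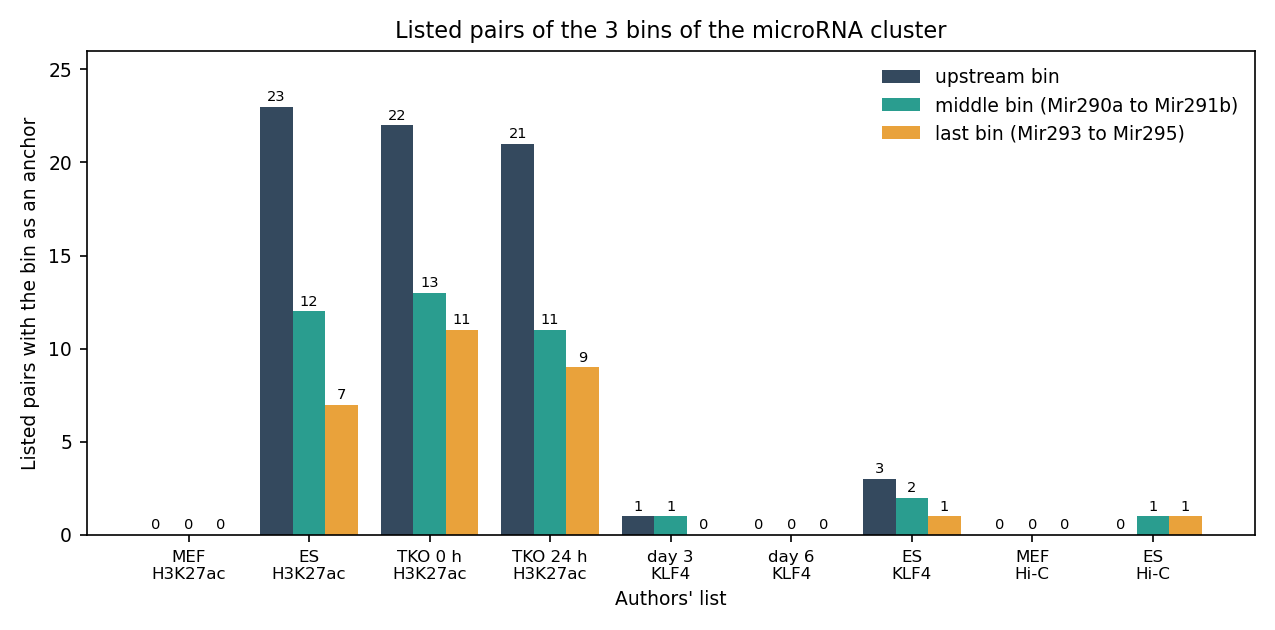
Number of listed pairs that have each of the 3 bins as an anchor, in each of the 9 lists. The upstream bin has 23, 22 and 21 pairs in the ES, TKO 0 h and TKO 24 h lists of H3K27ac, and all 3 bins have 0 in MEF H3K27ac, day 6 KLF4 and MEF Hi-C.

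The strongest member joined the upstream bin to the middle bin, the one with Mir290a to Mir291b. Its H3K27ac level was 111.5 and 106.0 CPM in the ES libraries, 111.6, 130.3 and 127.2 CPM in TKO 0 h, and 82.2, 102.6 and 80.9 CPM in TKO 24 h. In each of these lists it was the strongest pair on chromosome 7, out of 4921 in ES cells, 6363 in TKO 0 h and 5796 in TKO 24 h. The values of TKO 24 h all lay below those of the other groups. In MEFs the pair was not listed.

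Next in strength in ES cells and TKO 0 h was the pair of the upstream bin with its neighbour further upstream, chr7:3190001-3200000, a bin with no RefSeq gene. In TKO 24 h it came after the pair with the last bin. It stood at 55.5 and 56.2 CPM in ES cells, 53.5, 55.9 and 62.2 CPM in TKO 0 h and 36.3, 43.9 and 40.8 CPM in TKO 24 h. The pair of the upstream bin with the last bin, which holds Mir293, Mir294 and Mir295, stood at 38.0 and 37.5 CPM in ES cells, 39.8, 49.3 and 48.8 CPM in TKO 0 h and 38.1, 46.8 and 39.3 CPM in TKO 24 h. The former was lower in every TKO library at 24 h than in any at 0 h, while the latter overlapped between the times. Neither the former nor the strongest pair was called in the main edgeR test given below. How many of all TKO pairs separate in this way was not counted. Contact between the microRNA bins themselves, which are direct neighbours, was lower than the upstream bin's pair with the last bin or with the adjacent bin. It averaged 21.2 ± 1.08 CPM (SD, n = 2) in ES cells, whereas the upstream and last bins, which are 20 kb apart, averaged 37.8 ± 0.358 CPM (SD, n = 2).

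Most of the weaker members had levels not far above the listing limit. The median over the members was 6.26 CPM in ES cells, 7.90 CPM in TKO 0 h and 7.10 CPM in TKO 24 h. In the authors' deposited table, 14 of the 39 ES pairs had an FDR under 0.05 (5.48% of that list did), as had 16 of the 43 pairs of TKO 0 h (7.17%) and 12 of the 38 pairs of TKO 24 h (5.23%). Relative to the authors' expected count for the same chromosome and distance, every member lay above 1, from 3.06 to 39.6 in ES cells, 2.72 to 41.4 in TKO 0 h and 3.17 to 26.5 in TKO 24 h. The lists were filtered by p-value, so ratios above 1 may follow from listing. The share over the whole lists was not computed.

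The window paired with 23 bins outside it over all lists, 6 upstream and 17 downstream. An H3K27ac peak of TKO cells at 0 h and 24 h was annotated in 18 of the 23, and 5 had none. Of all 54825 bins in the TKO lists, 54.4% had a peak at either time. Genes were assigned by the authors to 5 of the partner bins. These were AU018091 upstream, then Nlrp12, Myadm, Cacng7, and the bin of 3300002P13Rik and Cacng6. Myadm encodes a membrane protein first described in myeloid cells, and Cacng6, Cacng7 and Cacng8 are gamma subunits of calcium channels, of which the last 2 also bind glutamate receptors.

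Downstream of the window the level did not fall steadily with distance, a pattern that was noticed after the values were seen. From the upstream bin, the bin at 90 kb, which holds most of Myadm (chr7:3289038-3299355), stood at 16.7 and 16.04 CPM in the ES libraries. The bin 10 kb nearer, which holds the 5′ end of Myadm, averaged 8.80 CPM. RefSeq lists a start of Myadm in both bins. In TKO 0 h the bin at 90 kb stood at 14.9, 17.0 and 18.9 CPM against a mean of 10.6 CPM in the nearer bin, and in TKO 24 h at 9.92, 11.4 and 9.21 CPM against 7.45 CPM. It was above its nearer neighbour in every library of the 3 groups.

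A further rise lay at 140 kb, inside the body of Cacng7 (chr7:3332027-3368221). It stood at 7.82 and 9.54 CPM in ES cells, 11.7, 12.96 and 11.9 CPM in TKO 0 h and 7.31, 8.79 and 6.36 CPM in TKO 24 h. The nearer bin, with the start of Cacng7, averaged 4.82, 4.54 and 5.06 CPM in these groups, below the body bin in each library. A bin at 60 kb, which overlaps the RefSeq gene Gm20553 and no gene of the authors, averaged 11.3 ± 0.774 CPM (SD, n = 2) in ES cells, 17.0 ± 1.86 CPM (SD, n = 2) in TKO 0 h and 12.8 ± 0.847 CPM (SD, n = 2) in TKO 24 h. The bin next to it on the near side was unlisted in the ES and TKO 24 h lists and at 4.05 CPM in TKO 0 h.

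On the upstream side, the bin of AU018091 at 40 kb stood at 20.7 and 20.3 CPM in ES cells, 22.95, 22.3 and 27.8 CPM in TKO 0 h and 16.2, 16.3 and 16.2 CPM in TKO 24 h. In ES cells and TKO 0 h it exceeded the mean of the bin between it and the window at 30 kb, at 18.2 and 18.4 CPM, in each library. At 24 h the order was the other way, with a mean of 16.3 CPM for AU018091 and 16.6 ± 2.33 CPM (SD, n = 2) for the bin at 30 kb, which is within the spread. The body of AU018091 (chr7:3154658-3169203) reaches into this bin.

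**Figure D2:**
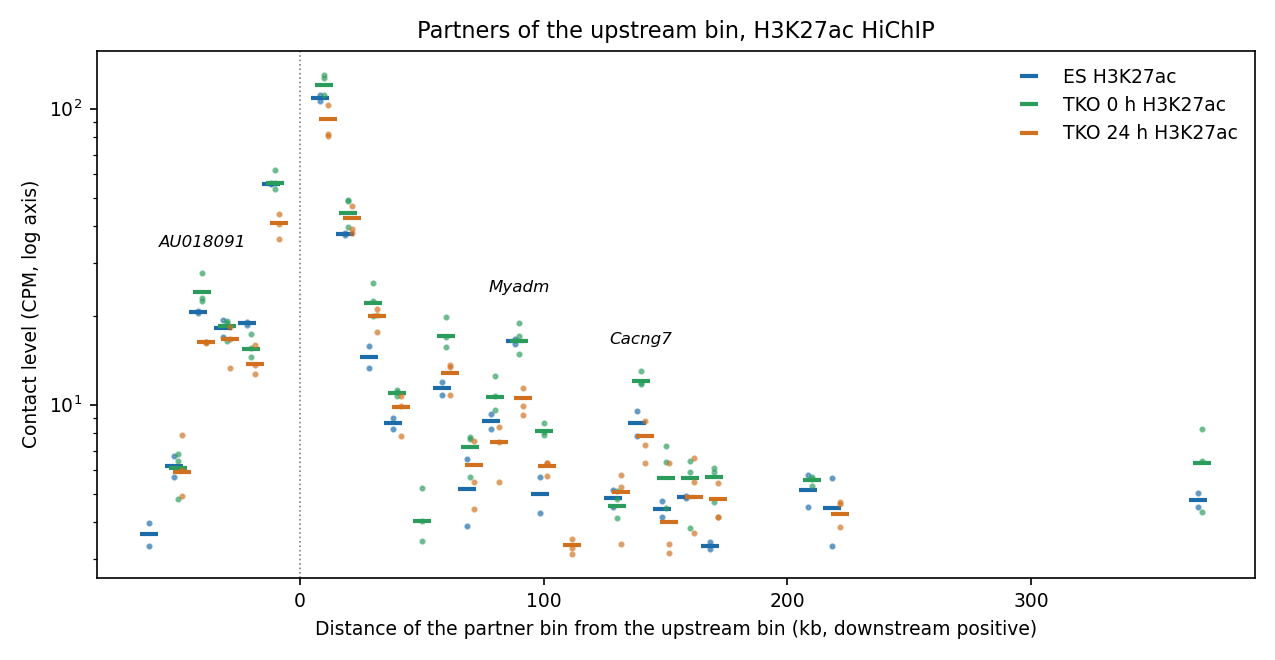
H3K27ac HiChIP level of every listed partner of the upstream bin (CPM, log axis) against its distance in kb, with downstream positive. Dots are libraries, bars are means over replicates, and gene names mark the bins described. Levels fall from over 80 CPM at 10 kb and rise again at 60, 90 and 140 kb in all 3 groups.

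The microRNA bins shared some of the partners of the upstream bin, each at a lower level. In ES cells the middle bin had 10 partners outside the window and the last bin 5, all among the 21 of the upstream bin, and in TKO 0 h 11 and 9, all among 20. At 24 h they had 9 and 7, all among 19. In all of these the mean level was higher with the upstream bin, and the remaining partners of the upstream bin had no listed pair with that microRNA bin. The middle bin paired with the 90 kb Myadm bin at 8.06 ± 0.274 CPM (SD, n = 2) in ES cells, 5.22 ± 0.604 CPM (SD, n = 2) in TKO 0 h and 4.49 ± 0.358 CPM (SD, n = 2) in TKO 24 h. The last bin, with Mir294 and Mir295, paired with it at 6.09 ± 0.730, 6.55 ± 0.861 and 5.97 ± 0.733 CPM (SD, n = 2 each). In all 3 groups the upstream bin had the highest mean level with this Myadm bin, although it lies furthest from it.

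The longest member joined the upstream bin to a bin 370 kb downstream, chr7:3570001-3580000, with an H3K27ac peak and no gene. It stood at 4.50 and 5.03 CPM in ES cells and at 6.44, 8.29 and 4.33 CPM in TKO 0 h. This was 29.9 times the authors' expected count for that distance in ES cells and 41.4 times in TKO 0 h, the highest such ratio among the members of TKO 0 h. In TKO 24 h it was not listed. The longest pair there reached 220 kb, to the bin of 3300002P13Rik and Cacng6, at 4.70, 3.87 and 4.61 CPM.

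The ES and TKO lists shared most members. Of the 39 ES pairs, 37 (94.9%) were also listed in TKO 0 h, where 77.6% of the whole ES list was, and 35 (89.7%) in TKO 24 h, against 72.3%. Conversely, 37 of the 43 pairs of TKO 0 h (86.0%) were in the ES list, against 62.8% of that list. All 3 lists held 34 of the 46 pairs. The shares compare 1 list with another and have no replicate check.

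In MEFs the cluster was empty between 2 occupied flanks. The MEF H3K27ac list had 0 pairs with any of the 3 bins, and 0 pairs that spanned the window, where ES cells had 4, TKO 0 h 5 and TKO 24 h 3 spanning pairs. Of all 40136 anchor bins of the ES list, 50.5% had no pair in MEFs, and 23.7% of the ES pairs were listed in MEFs, against 0 of the 39 members. The nearest MEF anchors were the AU018091 bin (chr7:3160001-3170000) on one side and chr7:3260001-3270000 on the other. Around Myadm, MEFs had their own pairs. The pair of neighbouring Myadm bins, chr7:3280001-3290000 and chr7:3290001-3300000, stood at 8.11 ± 1.41 CPM (SD, n = 2) in MEFs. The bins at chr7:3260001-3270000 and chr7:3290001-3300000 stood at 7.51 ± 2.79 CPM (SD, n = 2). Within the 110 kb below the window, MEFs had 9 pairs among the flanking bins and ES cells had 20. The Myadm flank thus held listed contacts in MEFs, and no listed contact led from it to the cluster.

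Whether doxycycline in TKO cells changed these contacts was tested on the 36 members listed at both times, within edgeR's quasi-likelihood fit over all 67728 pairs in both TKO lists. At 24 h, 2 members were lower and 0 higher at a Benjamini-Hochberg adjusted p under 0.05. Over all pairs tested, 2.05% were lower and 0.576% higher. The Myadm pair at 90 kb fell by 0.56 on the log2 scale (SE 0.15, adjusted p = 0.0185, edgeR), and its 3 values at 24 h lay below its 3 values at 0 h. The AU018091 pair at 40 kb fell by 0.43 (SE 0.13, adjusted p = 0.0433, edgeR), again with no overlap between the times. DESeq2 gave log2 changes of -0.53 and -0.43 for these 2 pairs and called 0 of the 36, but it gave no adjusted p for 27 of them, the Myadm pair included. At an unadjusted p under 0.05 it had 4 members (2.56% of all pairs tested) and edgeR 10 (13.6%). EdgeR called 4 members lower with all libraries kept separate (2.23% of all pairs) and 4 with contact totals in place of TMM factors (3.94%).

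Among the pairs that did not pass, the strongest one, between the upstream and middle bins, had a log2 change of -0.28 (SE 0.10, adjusted p = 0.107, edgeR). The pair with the adjacent upstream bin had -0.33 (SE 0.11, adjusted p = 0.0629, edgeR), and the Cacng7 body pair at 140 kb -0.54 (SE 0.18, adjusted p = 0.073, edgeR). With all libraries separate, the first of these came to -0.31 (adjusted p = 0.00241, edgeR) and the second to -0.34 (adjusted p = 0.0122, edgeR). The upstream bin's pair with the Mir294 and Mir295 bin was at 0.04 (SE 0.11, adjusted p = 0.927, edgeR). Over the 36 members the median log2 change was -0.10, with 26 below 0, and over all pairs tested it was 0.01. The 19 pairs of the upstream bin had a median of -0.12 with 15 below 0, and the 17 pairs of the other bins -0.03 with 11 below 0.

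**Figure D3:**
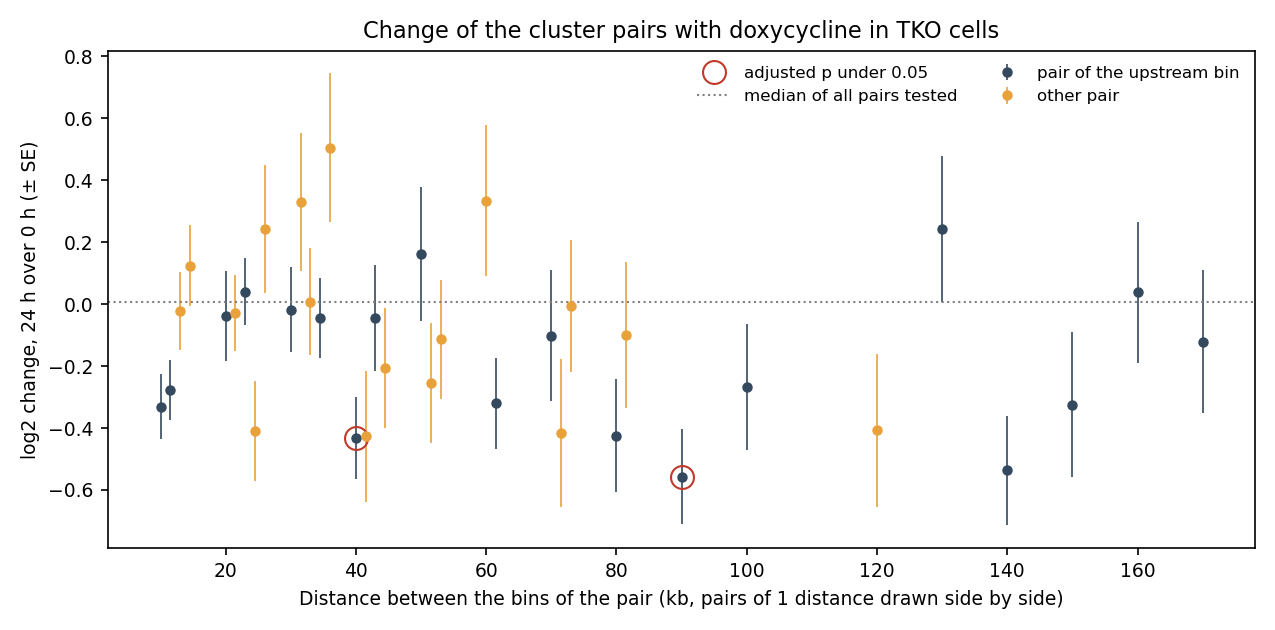
The log2 change of each of the 36 members from 0 h to 24 h in TKO cells, with its standard error, against the distance between its bins in kb. Circles mark the 2 pairs with an adjusted p under 0.05, at -0.43 (40 kb) and -0.56 (90 kb), and the dotted line is the median of all pairs tested, 0.01.

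Some members were listed at only 1 of the times. There were 7 at 0 h only, with levels between 3.42 and 8.29 CPM in single libraries, and 2 at 24 h only, between 3.13 and 4.70 CPM. The limit of the lists was 3 CPM. By their means over replicates these pairs stood at 4.05 to 6.37 CPM at 0 h and 3.36 to 4.26 CPM at 24 h, and the pair at 370 kb was the strongest of them. Of the pairs of TKO 0 h, 36 of 43 (83.7%) were listed at 24 h, against 72.6% of that list, and of those at 24 h, 36 of 38 (94.7%) were listed at 0 h, against 80.4%.

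KLF4, a zinc finger factor of the reprogramming cassette that is also active in ES cells, had few listed contacts at the cluster, and all lay within 20 kb. The median distance over the whole list was 20 kb, both at day 3 and in ES cells. The pair of the upstream and middle bins was the only member at day 3, with 4.49, 6.05 and 4.62 CPM. The deposited p-value of this pair was 0.0752, near the listing limit. At day 6 no member was listed, but that list held only 4047 pairs, against 23720 at day 3 and 24589 in ES cells. In ES cells the same pair stood at 8.38, 11.9, 26.6 and 28.4 CPM and was the strongest KLF4 pair on chromosome 7. All 4 ES values lay above the 3 of day 3.

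In edgeR's fit over the 7387 pairs in both KLF4 lists, this pair was higher in ES cells by 1.94 on the log2 scale (SE 0.24, adjusted p = 5.94e-10). Of all pairs tested, 3.07% were higher and 4.1% lower in ES cells. The size depended on the ES libraries. With libraries 1 and 2 alone it was 0.87 (adjusted p = 0.0142, edgeR), and with 3 and 4 alone 2.51 (adjusted p = 1.73e-33, edgeR). Each of these fits has 1 ES replicate, since its libraries were summed, and assumes that it varies like the day 3 libraries. DESeq2 gave 1.97 with an adjusted p of 0.0737, above the threshold.

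The other 3 KLF4 pairs were listed in ES cells only among the KLF4 lists. Thus 1 of the 4 ES members (25%) was also listed at day 3, as were 7387 of all 24589 ES KLF4 pairs. The upstream bin and the Mir294 and Mir295 bin stood at 4.51, 7.21, 11.3 and 13.6 CPM. The upstream bin and the adjacent bin before it stood at 6.88, 3.96, 10.52 and 11.03 CPM, and that adjacent bin and the middle bin at 4.30, 3.96, 4.51 and 3.74 CPM. In the first 2 of these, libraries 3 and 4 were above 1 and 2, and in the last all 4 overlapped. The log2 ratio of libraries 3 and 4 to 1 and 2 was 1.46 for the strongest pair, 1.13, 0.85 and -0.03 for these 3 in the same order, and its median over the 24589 pairs of the list was -0.20. Only 0.0163% of that list had a ratio as high as the strongest pair. The lowest CPM in the list was 3.01 in libraries 1 and 2 and 0 in libraries 3 and 4. Listing thus favoured pairs that are high in libraries 1 and 2, and its effect on the ratio over the list was not tested. The label of library 1 names a catalogue antibody against KLF4 and the others name KLF4 alone, and whether that bears on the split was not tested.

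All 4 ES KLF4 pairs were in the ES H3K27ac list, as were 74% of the whole ES KLF4 list. In the other direction, 4 of the 39 H3K27ac members (10.3%) were in the KLF4 list, against 24.1% of the ES H3K27ac list. None of the 10 longer H3K27ac members (100 kb or more), nor the Myadm pair at 90 kb, was among the KLF4 pairs. The median distance was 20 kb over the whole ES KLF4 list and 30 kb over the ES H3K27ac list. What share of all long H3K27ac pairs is in the KLF4 list was not computed, so this absence is not shown to be particular to the cluster. No member was in both lists of ES and day 6 KLF4, or of day 6 and day 3 KLF4, so these comparisons gave no fold change. With 4047 pairs in all, the day 6 list cannot hold most pairs of the longer ES and day 3 lists, members or not.

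**Figure D4:**
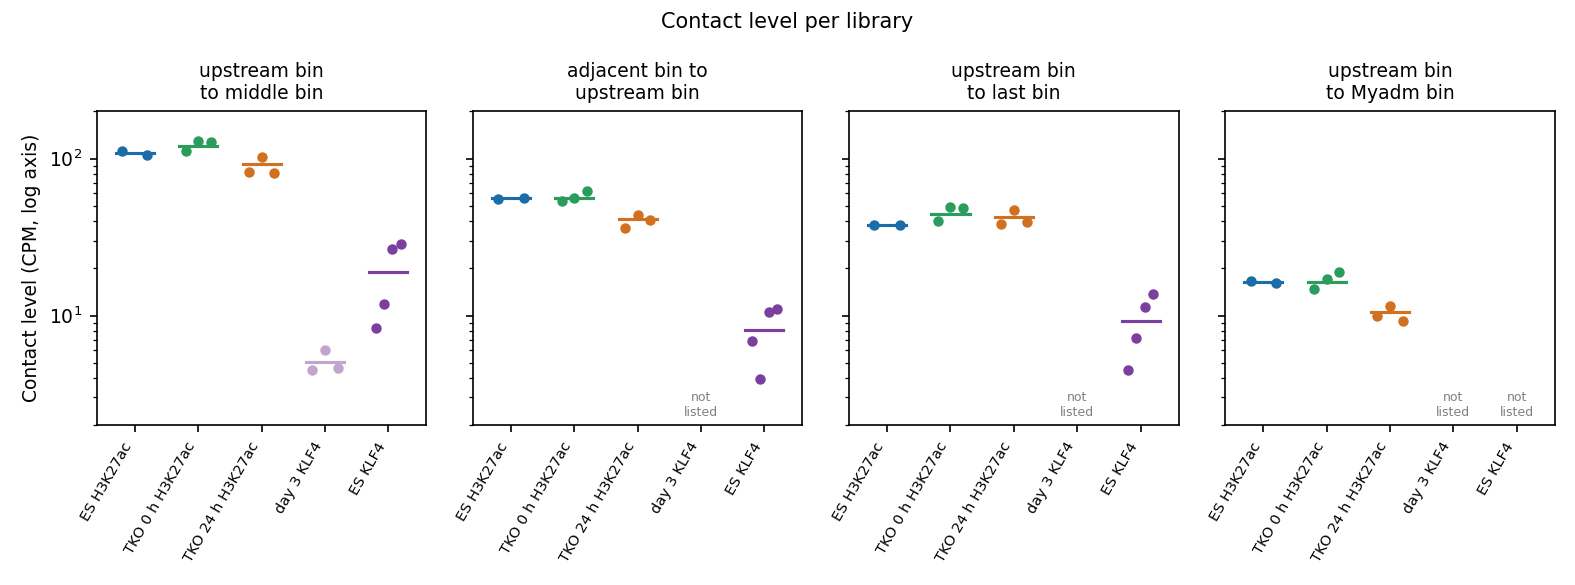
HiChIP level (CPM, log axis) of 4 pairs in each library, with the mean over replicates as a bar, in the 5 HiChIP lists that hold any member. H3K27ac and KLF4 levels come from different antibodies and are not to be compared with each other. The first 3 pairs are listed in ES KLF4, with libraries from 3.96 to 28.4 CPM, and the Myadm pair is not.

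Hi-C, which uses no antibody, listed 2 members in ES cells. The middle bin and chr7:3170001-3180000, at 40 kb, had a signal of 26.7 and 30.2 from 22 and 29 counts. The last bin, with Mir294 and Mir295, and the Myadm bin chr7:3290001-3300000, at 70 kb, had 19.4 and 21.9 from 16 and 21 counts. This signal is scaled per chromosome in a way not given in the sources used here. Both pairs were also H3K27ac members in ES cells, where 12.1% of the whole ES Hi-C list was. In the other direction, 2 of the 39 H3K27ac members (5.13%) were in the ES Hi-C list. Of the whole ES H3K27ac list, 38633 of 75466 pairs were. Relative to the authors' expected count the 2 Hi-C pairs stood at 1.84 and 2.07. The upstream bin, the main anchor in HiChIP, was in 0 Hi-C pairs. MEF Hi-C listed 0 members, and its nearest anchor on the upstream side was the AU018091 bin. Its libraries held 5576165 and 5635999 listed counts against 8525641 and 10015967 in ES cells, and 16.8% of all ES Hi-C anchor bins had no pair in MEF Hi-C. No member was in both Hi-C lists, so no change was fitted. In the authors' domain lists the first domain of chromosome 7 starts at 4120001 in ES cells and 4520001 in MEFs, beyond the window, so the cluster was in none.

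The neighbouring genes on chromosome 7 had more H3K27ac pairs in ES cells than in MEFs for 18 of the 18 with an annotated bin, out of 20 in the list. Over all 12695 annotated genes it was 65.4%. Several of these genes share a bin or a pair with each other and with the members. AU018091 had 8 pairs in ES cells and 1 in MEFs, Nlrp12 6 and 0, Myadm 7 and 4, and Cacng7 7 and 0. Further out, Cnot3, a subunit of the deadenylase complex that shortens message tails, had 9 and 3, and Tfpt and Prpf31, the latter a splicing factor, shared a bin with 6 and 5.

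Other genes of the microRNA pathway lie elsewhere in the genome. Of the 8 processing genes, 8 had more H3K27ac pairs in ES cells, against 65.4% of all 12695 annotated genes. Tarbp2, a Dicer partner, had 19 in ES cells against 3 in MEFs, and Drosha, the nuclear nuclease, 9 against 1. Dicer1 had 7 against 2, and Lin28a, which blocks let-7 maturation, 5 against 0. Of the loci whose microRNAs have a related seed, Larp7, the host of the Mir302 cluster, had 3 against 0 and Mcm7, host of Mir106b, 5 against 2, while Mir17hg had 0 in both. Of the 5 known targets of the cluster, 2 had more pairs in ES cells and 2 more in MEFs. Cdkn1a, the cell cycle inhibitor p21, had 17 pairs in ES cells and 9 in MEFs. Lats2, a Hippo pathway kinase, had 0 and 9, and Tgfbr2, a receptor for TGF-beta, 0 and 9. These counts compare the lists that the choice of the window used, with 1 list per group and no test.

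The pattern of pair counts over the 9 lists was most like those of 5 genes, by the Euclidean distance of log2(pairs + 1) in windows of the same size around 12691 gene bins, whose median distance was 6.95. They were Gm12100 (1.54), Gdf3 (1.84), a growth factor of the TGF-beta family made in pluripotent cells, Slc25a36 (1.94), a mitochondrial carrier, Efhb (2.06) and Lrrc2 (2.06). Gdf3 had 35 pairs in ES H3K27ac, 39 in TKO 0 h, 30 in TKO 24 h, 6 in ES KLF4, 7 in ES Hi-C and 0 in the other lists. Gm12100 had 23, 29 and 25 in the first 3, 4 in ES KLF4, 1 each in MEF H3K27ac and day 3 KLF4 and 3 in ES Hi-C. The likeness is a description of lists that share libraries and cell lines.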

How the data were processed

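The data were 25 libraries in 9 lists of 10 kb bin pairs. Per the file headers, the authors deposited counts, CPM and a ratio of observed to expected contacts per library, with a p-value and FDR per pair. The submitters' processing notes name mm10 and Bowtie2 2.2.3, and the contact caller is not given in the sources used here. In HiChIP the deposited CPM equals the count scaled to the contacts of the chromosome. The authors' domain lists carry a score per domain, which was not used, and the TKO lists give the distance between bins. The deposited Hi-C signal, named CPM, is scaled by constants of unstated origin. The lists were filtered by the authors: p-value under 0.1 and CPM above 3 in HiChIP (libraries 3 and 4 of KLF4 go below), under 0.01 and signal from 15 in Hi-C. The authors' ratio in replicate 4 of day 6 and ES KLF4 did not equal count over expected and was left out. Counts of pairs in both lists were tested with edgeR 4.0.16 (quasi-likelihood, filterByExpr, TMM factors on contact totals, R 4.3.3), adjusted over all pairs, and with DESeq2 1.42.0 as an alternative. Both steps were tested on simulated data. Libraries that agreed within sampling noise (chi-square p of 0.05 or more over pairs with a pooled CPM of 6 or more, applied only to groups whose other libraries did differ) were summed for tests, and averaged in a mean ± SD. In day 6 KLF4 and Hi-C no libraries differed, and they were kept separate. Gene positions are from RefSeq GRCm38.p6, and 98.8% of the authors' gene bins lay within 1 bin of them. Named are the 3 strongest and the longest pair of each list, every called pair, genes of fixed lists and the 5 most similar genes. The window and all lists were chosen with earlier results of these data known. Intervals of count data cover counting error only. Tables were handled with Python 3.11.15, pandas 2.3.3, numpy 2.4.6 and matplotlib 3.10.9.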

Additional observations from a re-analysis of the deposited data

How the results depend on the processing

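In the TKO comparison, the number of members lower at 24 h was 2 and became 4 with contact totals without TMM, 0 with DESeq2 (no adjusted p for 27 of the 36), 4 with every library separate and 4 with the replicate block, and ran from 0 to 2 when 1 library was left out. Where this left an arm with 1 replicate, it was assumed to vary like the other group. Without replicate 3 of 0 h, or replicate 1 or 3 of 24 h, it was 0. The number higher was 0 in every one of these fits. The Myadm pair kept its direction, with adjusted p from 0.00387 to 0.135, and so did the AU018091 pair, with 0.0124 to 0.281. The pair of the upstream and last bins, which was not called, changed sign with contact totals (-0.053) and ran from -0.064 to 0.073 when 1 library was left out, below 0 without replicate 1 of 0 h or 2 of 24 h. The change of the strongest KLF4 pair was 1.97 with DESeq2, no longer past the threshold, 1.71 with the replicate block, and 1.69 to 2.17 when 1 library was left out, each past it. The sets of ES KLF4 libraries were compared after seeing the data. Correlations of same-numbered libraries ran from -0.009 to 0.005 (TKO) and -0.077 to 0.043 (KLF4), so the numbers do not pair the samples. With a CPM of 5 or more in every library, 25 members were left in ES H3K27ac, 26 in TKO 0 h, 23 in TKO 24 h, 0 in day 3 KLF4 and 1 in ES KLF4. At a stricter p-value 0 were left in day 3 KLF4. A window 1 bin wider on each side gave 5 in ES Hi-C and still 0 in MEF H3K27ac, day 6 KLF4 and MEF Hi-C. The ES against day 6 KLF4, day 6 against day 3 KLF4 and Hi-C fits were not run on alternatives, since no member was in both lists. Depth limits the weak members, many with under 50 counts per library.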
